A study of Mus musculus with 10 samples.

Results

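The collagen chain genes are the 41 protein-coding genes of the sorted macrophage table, out of 23202 genes listed there, whose symbol is Col, a type number, the letter a and a chain number. The whole-tumor table lists 19720 genes, and 36 of the same 41 collagen genes are among them. Membership was decided by name alone, with no measured value. By the usual classes of the protein family, the macrophage table holds 11 fibrillar, 6 basement membrane and 24 other collagens, and the tumor table holds 11, 6 and 19. With a filter of a mean of at least 1 CPM (reads per 1000000 reads of a library), 33 members could be tested in each table: 9 fibrillar, 5 basement membrane and 19 other in macrophages, and 9, 6 and 18 in tumors.

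RNA was sequenced from 10 libraries of 6 mice with spontaneous mammary tumors, taken at 15 weeks of age. Every mouse carried the MMTV-PyMT transgene on a B6 background, in which a mammary promoter drives a viral oncogene in the mammary epithelium, and floxed Cxcr4 alleles (Cxcr4fl/fl), so the controls are floxed as well. Mice here called cKO also carried LysmCre, which acts in myeloid cells and is not limited to tumor macrophages, and controls were littermates without Cre. The macrophage table holds cells sorted on F4/80 and CD11b from 3 cKO mice (725, 746 and 867) and 3 controls (706, 720 and 775), and the tumor table holds whole tumors of 2 cKO mice (725 and 746) and 2 controls (706 and 720). CXCR4 is a chemokine receptor, and the stated question was what its loss in macrophages does to their transcriptome and to the tumor.

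Collagens are proteins of 3 chains wound into a triple helix, which needs a glycine at the third residue of each triplet. Fibrillar collagens (types I, II, III, V, XI, XXIV and XXVII) have a long unbroken helix and pack into fibers, which in solid tissues are made mainly by fibroblasts. Type IV collagen has an interrupted helix and forms the flexible sheet of basement membranes under epithelium and around blood vessels. The other collagens decorate fibrils (the FACIT group), form beaded filaments (type VI), short-chain networks (types VIII and X) or anchoring fibrils (type VII), span the cell membrane, or sit in the basement membrane zone (the multiplexins XV and XVIII). In mammary tumors, fibrillar collagen of the stroma and type IV collagen of epithelial and vascular basement membranes are both common.

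The class difference can be read in the transcripts. In the GENCODE vM21 coding sequences, the longest unbroken run of glycine triplets was 337 to 344 triplets in the fibrillar chains of types I, II, III, V and XI, and 216 and 217 triplets in Col24a1 and Col27a1. In the 6 type IV chains it was 39 to 66 triplets, and each chain had 23 to 27 separate runs of 3 or more triplets. Stretches of 72 bases are shown for the 2 fibrillar and 2 type IV chains whose tumor values are described below, with every glycine codon in capitals; the fibrillar stretches come from within the longest run and the type IV stretches cross an interruption.
Col1a1: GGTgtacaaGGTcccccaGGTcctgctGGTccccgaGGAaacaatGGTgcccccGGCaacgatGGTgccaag
Col3a1: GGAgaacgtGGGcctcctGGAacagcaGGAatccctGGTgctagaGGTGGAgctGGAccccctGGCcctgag
Col4a1: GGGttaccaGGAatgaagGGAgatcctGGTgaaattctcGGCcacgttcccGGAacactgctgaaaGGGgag
Col4a2: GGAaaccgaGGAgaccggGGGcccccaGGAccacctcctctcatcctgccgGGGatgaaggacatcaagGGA
In Col1a1 and Col3a1 a glycine codon opens every triplet of the stretch, and in Col3a1 an additional one stands inside a triplet. In Col4a1 and Col4a2 the spacing of the capitals is broken.

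The quality of the sort bears on every macrophage value. Adgre1, which encodes F4/80, held 237 to 555 CPM in macrophage libraries and 17.4 to 28.5 CPM in tumors, while Epcam, an epithelial adhesion gene, held 339 to 616 CPM in macrophage libraries and 330 to 462 CPM in tumors. Depth, inferred from the step between low values, was 14.35 to 25.06 M reads (M, 1000000) in macrophage libraries and 34.16 to 53.18 M reads in tumor libraries, and 3 reads correspond to 0.1197 to 0.209 CPM and 0.0564 to 0.0878 CPM. Cxcr4, the targeted gene, held 14.4, 135.4 and 54.3 CPM in control macrophages 706, 720 and 775 and 41.9, 165.2 and 24.1 CPM in cKO macrophages 725, 746 and 867, a log2 difference of 0.21 (SE 0.59). The macrophage libraries labelled cKO were therefore not lower for Cxcr4. In tumors it held 29.8 and 33.4 CPM in controls 706 and 720 and 47.9 and 57.6 CPM in cKO 725 and 746, higher in both cKO tumors (0.72, SE 0.29; adjusted p = 0.819, limma), so cKO below is the label of a library. In bulk samples, fewer cells of a type and less RNA per cell cannot be told apart.

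In the sorted macrophages some collagen genes varied strongly between mice and others varied little. Col3a1, the chain of type III collagen, which forms fine fibers beside type I, held 11.05, 21.9 and 156 CPM in controls 706, 720 and 775 and 23.6, 38.1 and 652 CPM in cKO 725, 746 and 867. Col1a1, the main chain of type I collagen, held 7.22, 7.30 and 55.3 CPM in those controls and 8.80, 22.1 and 259 CPM in those cKO libraries. In both genes 1 control and 1 cKO library (775 and 867) stood above the rest, and the groups overlapped.

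Col1a2 and the type V chains Col5a1 and Col5a2 had the same 2 libraries at the top. Col1a2, the partner chain of Col1a1, held 0.208, 15.98 and 43.4 CPM in controls 706, 720 and 775 and 7.23, 2.05 and 153 CPM in cKO 725, 746 and 867. The Col1a2 value of control 706 amounts to about 3 reads. Col5a1, a chain of type V collagen, which regulates fiber diameter, was listed at 0, 0.0890 and 9.74 CPM in the controls and held 6.44, 7.30 and 45.8 CPM in the cKO libraries. Col5a2, its partner, held 0.0695, 3.52 and 36.4 CPM in the controls and 11.6, 7.65 and 57.8 CPM in the cKO libraries. Controls 706 and 720 were the lowest of the 6 libraries for Col5a1 and Col5a2, while control 775 was second highest. Col5a3, a weak further chain of type V, did not share this order. It held 2.57, 2.27 and 1.09 CPM in the controls and 0, 3.40 and 5.76 CPM in the cKO libraries.

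**Figure D1:**
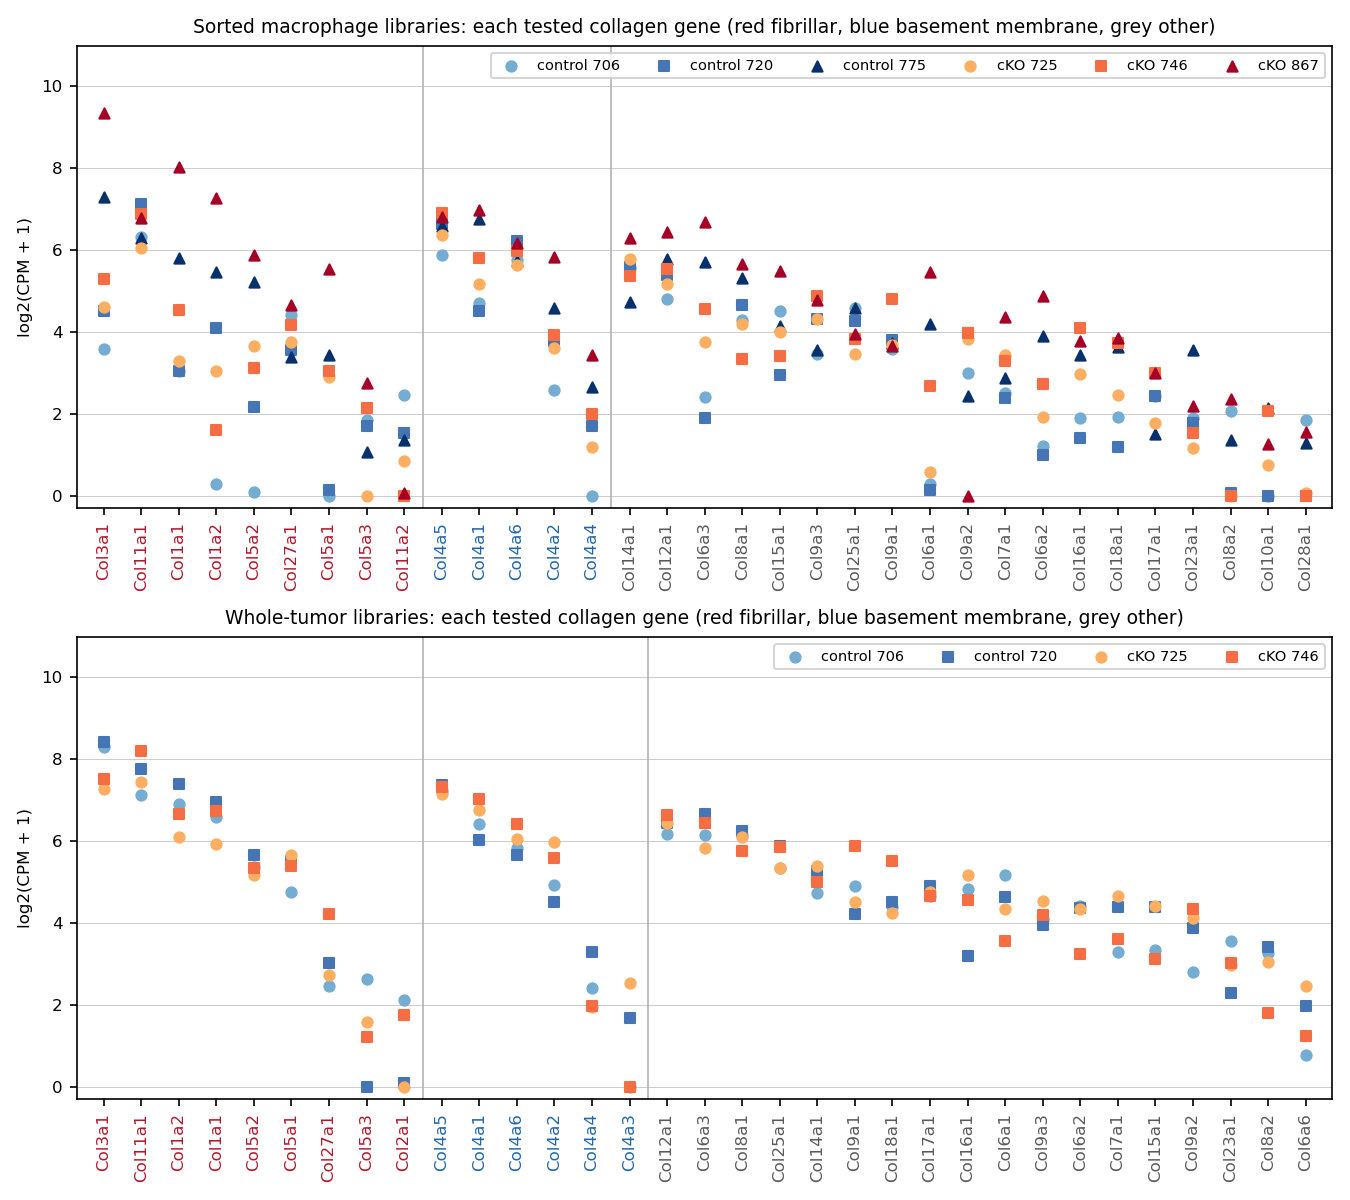
Level of each tested collagen gene as log2(CPM + 1), on the vertical axis, with 1 point per library, in sorted macrophages (top, 6 libraries) and whole tumors (bottom, 4 libraries); genes are ordered by class and by mean level. In macrophages the points of Col3a1, Col1a1, Col1a2, Col5a1, Col5a2 and the type VI chains spread widely with cKO 867 at the top. Those of Col11a1, Col4a5, Col4a6 and Col14a1 lie close together.

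Fibrillar collagens were not uniform in this. Col11a1, a chain of type XI collagen, which is best known from cartilage, held 78.5, 140 and 77.1 CPM in control macrophages 706, 720 and 775 and 65.5, 116 and 109 CPM in cKO 725, 746 and 867. Col27a1, a long fibrillar chain with a shorter helix, held 20.4, 10.7 and 9.43 CPM in the controls and 12.6, 16.9 and 24.4 CPM in the cKO libraries. The standard deviation over the 6 libraries, on the log2(CPM + 1) scale, was 0.42 for Col11a1 and 0.51 for Col27a1, against 1.99 for Col1a1, 2.15 for Col3a1 and 2.55 for Col1a2. Neither Col11a1 nor Col27a1 was low in control 706, where Col1a2 was almost unread.

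The promoters of the fibrillar genes at the ends of this range are shown from RefSeq (GRCm38.p6) for the 150 bases before the start site, with the motif CCAAT, or ATTGG on the other strand, in capitals. Col1a2 had the largest spread between macrophage libraries and Col11a1 the smallest of the fibrillar genes. The windows lie at chr6:4505468-4505617 for Col1a2 and chr3:114030390-114030539 for Col11a1, both on the plus strand. They are placed by the RefSeq start site, and for Col1a2 GENCODE begins the gene further upstream, at 4504814, so that window lies inside the GENCODE gene.
Col1a2: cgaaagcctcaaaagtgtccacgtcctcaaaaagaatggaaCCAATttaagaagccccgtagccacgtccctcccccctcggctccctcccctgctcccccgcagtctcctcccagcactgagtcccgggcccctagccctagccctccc
Col11a1: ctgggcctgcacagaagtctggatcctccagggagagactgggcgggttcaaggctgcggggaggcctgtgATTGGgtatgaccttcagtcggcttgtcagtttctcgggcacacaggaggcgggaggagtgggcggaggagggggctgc
Both windows hold the motif, starting 109 bases before the start site in Col1a2 and 79 bases before it in Col11a1. Over the window from 250 bases before to 50 bases after the start, CCAAT was found on either strand in 12 of the 34 collagen promoters that the table holds and in 37.9% of all 27025 promoters. TATAAA was found in 5 of the 34, among them Col3a1, and in 14.2% of all promoters. GGGCGG was found in 21 of the 34 and in 35.9% of all promoters. These are matches of letters and show no binding.

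Type IV collagen split by gene pair. Col4a1 and Col4a2 encode the chains found in nearly all basement membranes, and their genes lie head to head on chromosome 8 with start sites 21 bases apart. Col4a1 held 25.2, 21.7 and 108 CPM in control macrophages 706, 720 and 775 and 34.7, 54.7 and 124 CPM in cKO 725, 746 and 867. Col4a2 held 5.002, 12.6 and 22.999 CPM in the controls and 11.3, 14.2 and 55.9 CPM in the cKO libraries. For both genes cKO 867 was highest and control 775 second, the order seen for type I and III collagen.

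Col4a5 and Col4a6, which lie head to head on the X chromosome with start sites 1309 bases apart, encode chains known from epithelial and smooth muscle basement membranes. Col4a5 held 57.8, 98.3 and 95.9 CPM in the control macrophages and 82.2, 120 and 111 CPM in the cKO libraries. Col4a6 held 52.8, 73.5 and 52.0 CPM in the controls and 48.6, 62.1 and 71.3 CPM in the cKO libraries. Over the 6 libraries the standard deviation of log2(CPM + 1) was 0.37 for Col4a5 and 0.25 for Col4a6, the smallest of all 33 tested members, against 1.04 for Col4a1 and 1.08 for Col4a2. The third pair, Col4a3 and Col4a4 on chromosome 1 (start sites 72 bases apart), was weak: Col4a3 was listed at 0 in 5 of 6 macrophage libraries and held 5.83 CPM in control 775, and Col4a4 ranged from 0 to 9.90 CPM.

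Among the other collagens, type VI followed type I and the FACIT chains mostly did not. Col6a1, which with Col6a2 and Col6a3 builds the beaded filaments that surround cells, held 0.208, 0.0890 and 17.2 CPM in control macrophages 706, 720 and 775 and 0.492, 5.35 and 43.1 CPM in cKO 725, 746 and 867. Col6a2 held 1.32, 0.979 and 13.9 CPM in the controls and 2.80, 5.60 and 28.2 CPM in the cKO libraries. Col6a3 held 4.31, 2.72 and 51.5 CPM in the controls and 12.5, 22.7 and 102 CPM in the cKO libraries. All 3 type VI chains were highest in cKO 867 and second in control 775.

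Col14a1, a fibril-associated chain and the other collagen with the highest level per kb of exon in macrophages (6.92 CPM per kb), held 46.3, 47.4 and 25.6 CPM in the controls and 53.8, 40.4 and 77.9 CPM in the cKO libraries. Control 775 was the lowest library for Col14a1. Col15a1, a multiplexin of vessel and muscle basement membranes, held 21.7, 6.72 and 16.6 CPM in the controls and 14.8, 9.56 and 44.0 CPM in the cKO libraries. Col18a1, the multiplexin whose end fragment is endostatin, held 2.78, 1.29 and 11.4 CPM in the controls and 4.52, 12.2 and 13.5 CPM in the cKO libraries. The 2 multiplexins differed in their order, since cKO 746 was second lowest for Col15a1 and second highest for Col18a1.

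Counted over all members, cKO 867 was the highest macrophage library for 20 of 33 tested collagens, against 21.4% of all 16304 genes tested. It was highest for 7 of 9 fibrillar, 3 of 5 basement membrane and 10 of 19 other collagens. Control 775 was second highest for 13 of the 33, and the share of second places over all genes was not computed. These counts describe the libraries, which were singled out after their values were known.

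Endothelial and fibroblast markers were high in the same libraries. The summed level of 8 endothelial markers was 292 CPM in cKO 867, 112 CPM in control 775 and 16.95 to 24.2 CPM in the other 4 macrophage libraries, where 2 to 4 of the 8 were listed at 0. Pecam1 and Cdh5, junction genes of endothelium, held 73.8 and 102 CPM in cKO 867 and 27.1 and 30.3 CPM in control 775. The summed level of 10 fibroblast markers was 191 CPM in control 775, 174 CPM in cKO 867 and 45.0 to 105 CPM in the other 4. Dcn, a collagen-binding proteoglycan of fibroblasts, made up 155 of the 191 CPM in control 775. It held 86.9 CPM in cKO 867 and 72.2 CPM in cKO 746, so 775 and 867 stand in the opposite order for Dcn and for Col1a1. Pdgfra, another marker of the list, held 8.91 CPM in control 775, 5.64 CPM in cKO 867 and 0.639 to 6.74 CPM in the other 4. The mean deviation of the list from the control mean, in log2(CPM + 1), was 0.60 in control 775, 1.54 in cKO 867 and -0.59 to -0.18 in the other 4. The 7 pericyte markers summed to 371 CPM in cKO 867, 204 CPM in control 775 and 125 to 221 CPM in the other 4. By that sum control 775 did not stand above the rest, and the mean deviation was 0.69 there and 0.72 in cKO 746. Rgs5 and Pdgfrb, the only pericyte markers read singly here, did follow the order. The list as a whole did not, with a sum of 221 CPM in control 720 and 204 CPM in control 775. Rgs5 held 127 CPM in cKO 867, 43.7 CPM in control 775 and 2.08 to 12.5 CPM in the other 4. Pdgfrb held 21.3 CPM, 7.65 CPM and 0 to 6.30 CPM.

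Macrophage and luminal epithelial markers did not follow that order. The 10 macrophage markers summed to 902 CPM in control 775 and to 1831 to 2291 CPM in the other 5 libraries, cKO 867 included (1939 CPM). The 6 luminal epithelial markers summed to 3599 to 5254 CPM in the 6 macrophage libraries and to 1015 to 1156 CPM in the 4 tumors. The 7 basal epithelial markers were highest in cKO 867 (88.5 CPM), followed by cKO 746 (75.5 CPM) and control 775 (73.2 CPM), and summed to 37.7 to 40.9 CPM in the other 3 macrophage libraries and 272 to 427 CPM in tumors. The 4 adipocyte markers listed in macrophages summed to 8.58 CPM in cKO 867, 2.52 CPM in control 775 and at most 1.04 CPM in the other 4, with Adipoq not listed, and the 4 Schwann cell markers summed to 31.2 to 77.6 CPM there. The part of these cells in the collagen values was not tested.

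**Figure D2:**
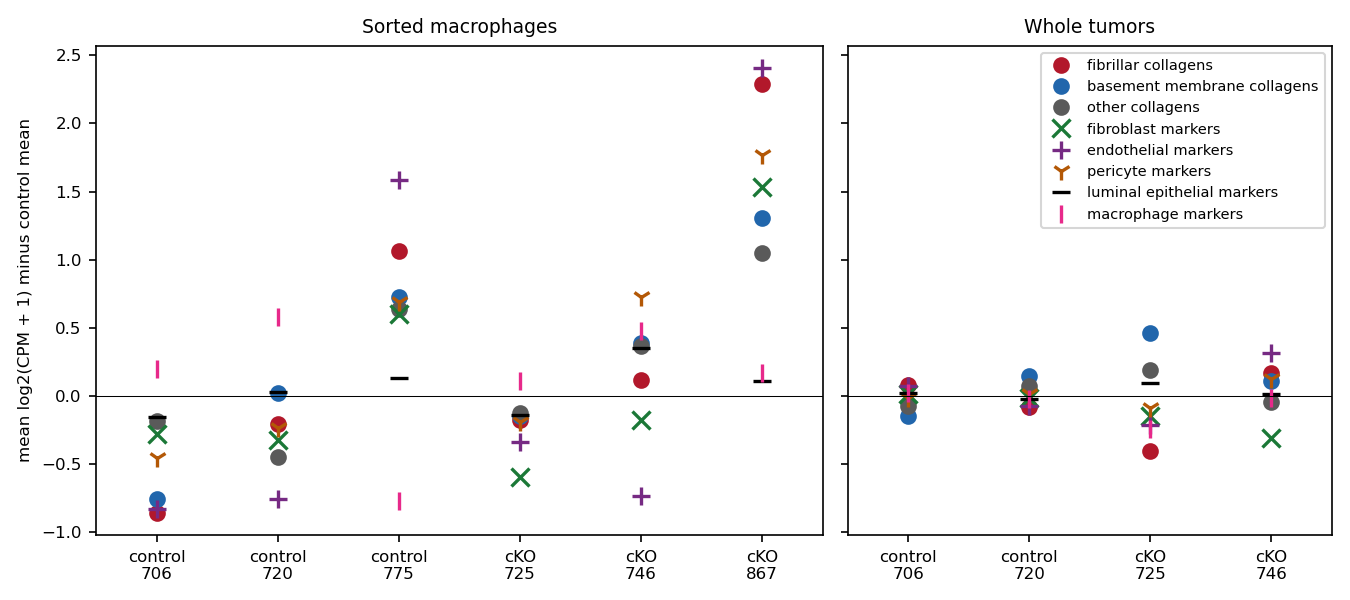
Mean deviation of each collagen class and marker list from the control mean, in log2(CPM + 1), for each macrophage library (left) and tumor library (right). Fibrillar collagens and endothelial markers are both highest in cKO 867 and second highest in control 775, while luminal epithelial markers stay within 0.35 of the control mean in every library.

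The makeup of the collagen signal shows the same contrast without depending on how a library was scaled. Here each gene's CPM was divided by its exon length, and each class is given as a share of the sum over all members. Fibrillar collagens took 19.1%, 22.9% and 33.0% in control macrophages 706, 720 and 775 and 18.1%, 20.9% and 53.4% in cKO 725, 746 and 867. Col1a1, Col1a2 and Col3a1 together took 3.90%, 6.11% and 22.95% in the controls and 6.19%, 7.59% and 44.8% in the cKO libraries. In the 4 libraries other than 775 and 867, Col4a5 and Col4a6 alone took 26.2% to 31.5% of the collagen signal, more than all fibrillar chains together.

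The partner chains of type I collagen were not read in proportion in every macrophage library. The ratio of Col1a1 to Col1a2 per kb was 1.40 to 1.99 in the 4 tumors, and in macrophages it was 65.6, 0.865 and 2.42 in controls 706, 720 and 775 and 2.31, 20.4 and 3.21 in cKO 725, 746 and 867. The extremes are the 2 libraries in which Col1a2 was at 0.208 and 2.05 CPM. The ratio of Col4a5 to Col4a6 per kb moved less, from 1.30 to 2.29 in macrophages and from 2.23 to 3.997 in tumors. Exon length here joins all annotated transcripts of a gene, so the absolute ratio depends on the annotation and only its spread between libraries is read.

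**Figure D3:**
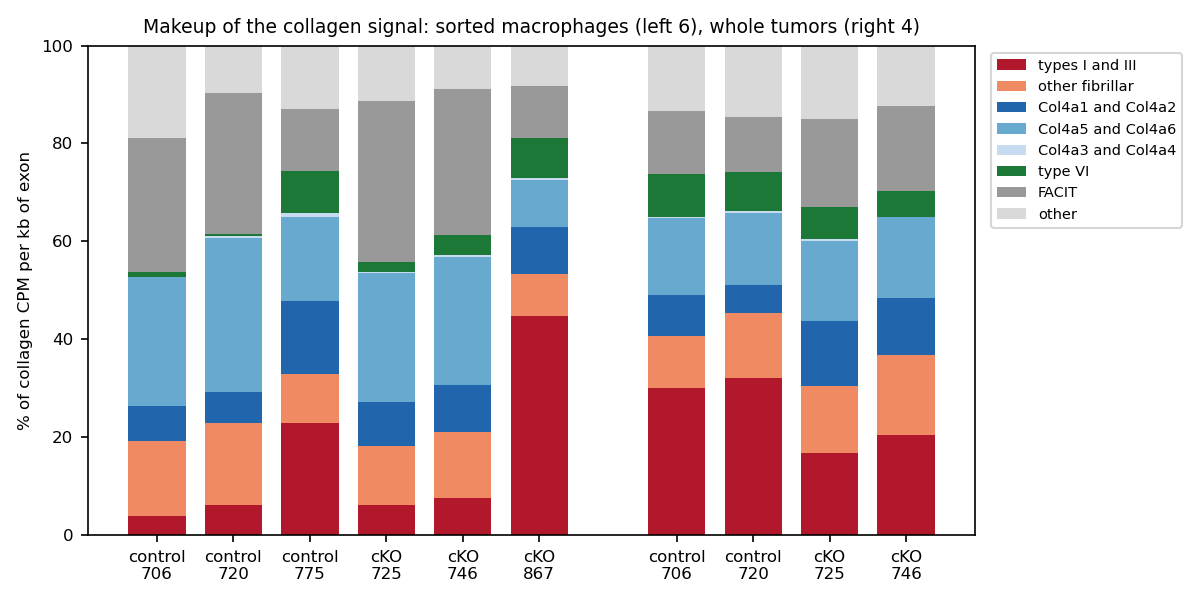
Share of each collagen group in the summed collagen CPM per kb of exon, in percent on the vertical axis, for the 6 macrophage libraries (left) and the 4 tumor libraries (right). The share of types I and III is 44.8% in cKO 867 and 3.90% to 22.95% in the other macrophage libraries, and 16.8% to 20.5% in cKO tumors against 30.1% to 32.0% in control tumors.

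Between the macrophage groups no collagen passed the test. With limma across all genes, 0% of 16304 genes tested and 0 of 33 collagens had an adjusted p under 0.05, also without the intensity trend. At an unadjusted p under 0.05 there were 2.63% of all genes (428) and 3 of 33 collagens. Higher values in the libraries labelled cKO were found for 25 of 33 collagens, with a median log2 difference of 0.52, beside 54.7% positive and a median of 0.05 over all genes tested. By class the median difference was 0.69 for fibrillar (7 of 9 positive), 0.65 for basement membrane (5 of 5) and 0.46 for other collagens (13 of 19). This rested largely on cKO 867: without it the median was 0.15 over all tested collagens and -0.09 for the fibrillar class. Without control 775 it was 0.70 and 1.79, and the unadjusted count was 10 of 32 collagens with none past the adjusted threshold. Without cKO 725 the median over all collagens was 0.91, and without control 706 the basement membrane median was 0.06.

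The largest macrophage differences were those of the strongly varying genes. Col5a1 differed by 2.65 (SE 0.89), Col5a2 by 1.72 (SE 0.90) and Col6a3 by 1.67 (SE 0.75) on the log2(CPM + 1) scale, each with an adjusted p of 0.9998. The Col5a1 difference was 1.79 without cKO 867 and 3.77 without control 775. Col1a1 differed by 1.31 (SE 0.81), Col3a1 by 1.29 (SE 0.84) and Col1a2 by 0.69 (SE 1.09), and all 3 turned negative without cKO 867, Col1a2 also without control 706. Col4a1 differed by 0.65 (SE 0.48) and Col4a2 by 0.81 (SE 0.57), and Col4a1 was at 0.15 without cKO 867. Against this, Col11a1 differed by -0.01 with a 95% interval from -0.63 to 0.61 (0.27 without control 720), and Col4a6 by 0.03 with an interval from -0.57 to 0.63.

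In 4 of the 33 tested members the macrophage groups did not overlap. Every cKO library was above every control for 2 collagens, beside 3.78% of all genes, and below every control for 2, beside 3.45%. Col7a1, the anchoring fibril chain that ties epithelium to stroma, held 4.65, 4.18 and 6.35 CPM in controls 706, 720 and 775 and 9.88, 8.755 and 19.7 CPM in cKO 725, 746 and 867. Col9a3, a chain of the FACIT collagen IX, held 9.93, 18.7 and 10.7 CPM in the controls and 19.03, 28.4 and 26.3 CPM in the cKO libraries. Both higher genes had all 3 cKO libraries above the controls by a margin that was narrow for Col9a3. Exons of Tcfl5 on the opposite strand cover 6.07% of the exon length of Col9a3, and without a known strand setting reads of the 2 genes there cannot be told apart.

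The lower members were Col25a1 and Col11a2. Col25a1, a transmembrane collagen, held 22.9, 18.2 and 23.1 CPM in the control macrophages and 10.1, 13.3 and 14.5 CPM in the cKO libraries, a log2 difference of -0.73 (SE 0.42). Col11a2, a chain of type XI collagen, held 4.52, 1.87 and 1.57 CPM in the controls and 0.787, 0 and 0.0397 CPM in the cKO libraries. Of the members with the largest negative differences, Col23a1, a transmembrane collagen, held 2.71, 2.40 and 10.8 CPM in the controls and 1.23, 1.90 and 3.58 CPM in the cKO libraries, which overlap. The adjusted p was 0.9998 for each of these genes.

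**Figure D4:**
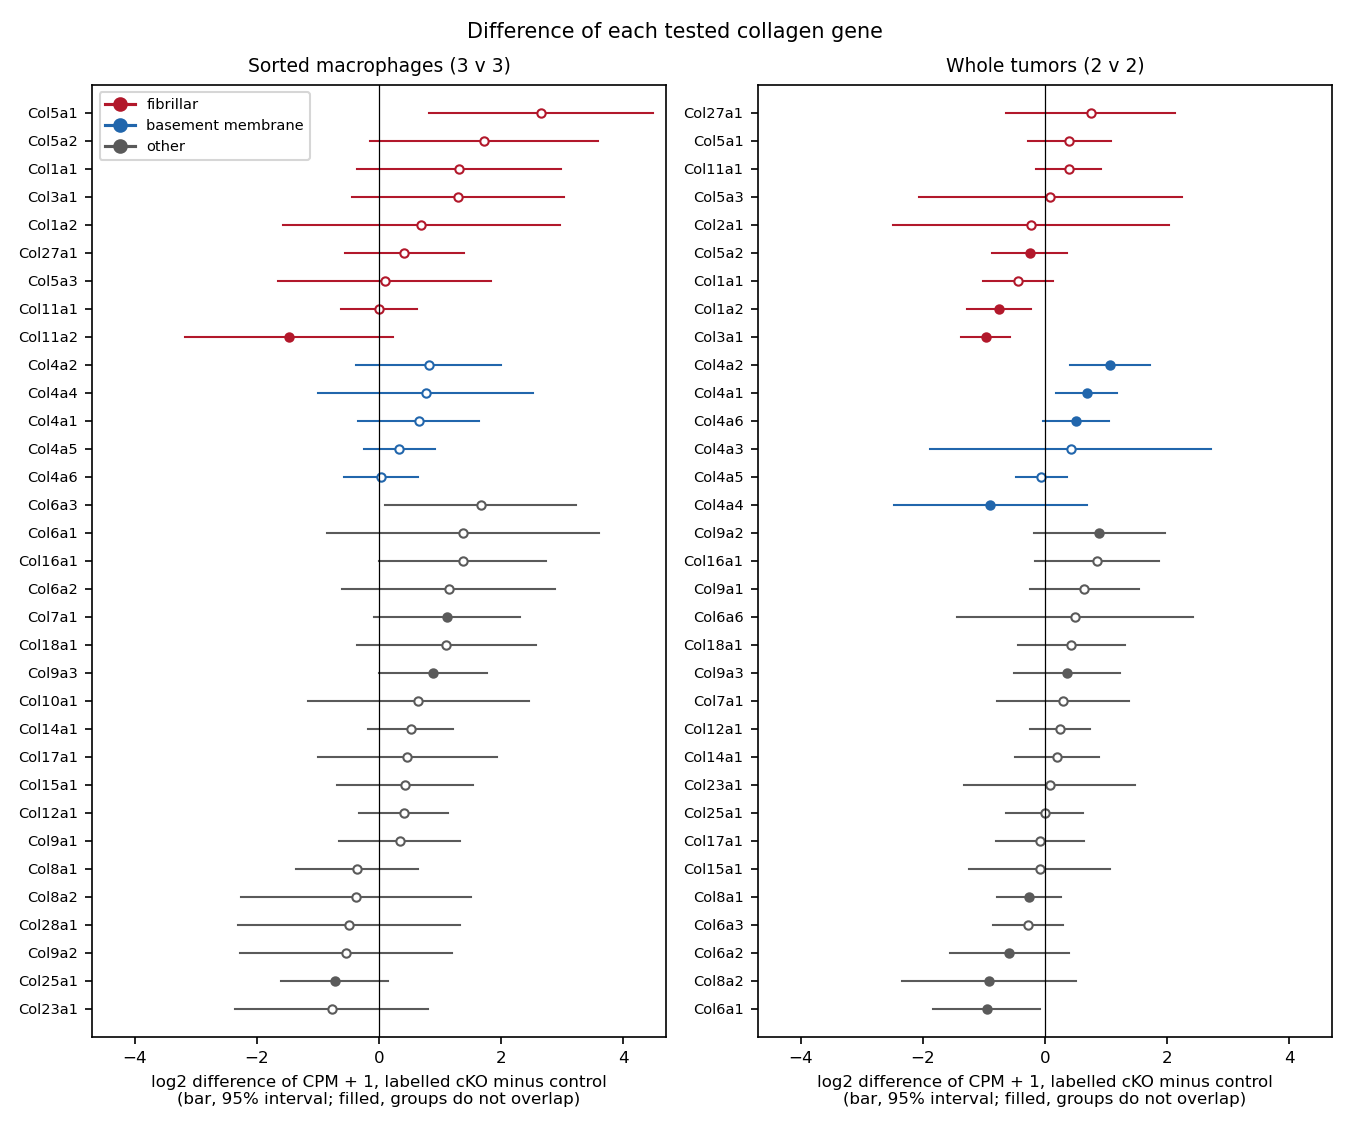
Log2 difference of CPM + 1, labelled cKO minus control, for each tested collagen in macrophages (left, 3 against 3) and tumors (right, 2 against 2), with 95% intervals from limma; filled points mark genes whose groups do not overlap. In tumors Col3a1 (-0.98), Col6a1 (-0.96) and Col1a2 (-0.76) lie left of 0 and Col4a2 (1.07) and Col4a1 (0.68) lie right of it, and no gene in either panel passes the adjusted threshold.

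In whole tumors the fibrillar chains of types I and III were lower, and Col4a1 and Col4a2 higher, in the libraries labelled cKO, without passing the test. Col3a1 held 316 and 343 CPM in control tumors 706 and 720 and 153 and 183 CPM in cKO tumors 725 and 746, which differ by -0.98 on the log2 scale (SE 0.19; adjusted p = 0.584, limma). Col1a2 held 118 and 167 CPM in the controls and 67.9 and 100.1 CPM in the cKO tumors, which differ by -0.76 (SE 0.25; adjusted p = 0.819, limma). Both genes were lower in each cKO tumor than in each control. Col1a1 held 94.7 and 123 CPM in the controls and 59.7 and 105.2 CPM in the cKO tumors, and its groups overlapped.

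Of the type IV chains, Col4a1, Col4a2 and Col4a6 stood on the other side from types I and III in these tumors. Col4a2 held 29.3 and 21.8 CPM in control tumors 706 and 720 and 61.8 and 47.3 CPM in cKO tumors 725 and 746, which differ by 1.07 on the log2 scale (SE 0.31; adjusted p = 0.717, limma). Col4a1 held 84.8 and 64.0 CPM in the controls and 108 and 130 CPM in the cKO tumors, which differ by 0.68 (SE 0.23; adjusted p = 0.819, limma). These head-to-head genes were both higher in each cKO tumor than in each control. Col4a6 held 55.6 and 49.1 CPM in the controls and 65.5 and 84.7 CPM in the cKO tumors, while its neighbor Col4a5 held 149 and 165 CPM in the controls and 142 and 159 CPM in the cKO tumors. Col4a5 had the smallest spread of all tested members over the 4 tumors (SD of log2 0.10) and the highest level per kb of the class (22.9 CPM per kb). Col4a4, a weak chain, held 4.30 and 8.77 CPM in the controls and 2.85 and 2.88 CPM in the cKO tumors. Col4a5 differed by -0.06 and Col4a4 by -0.90, the direction of types I and III. Col4a3, also weak, held 0 and 2.21 CPM in the controls and 4.76 and 0 CPM in the cKO tumors, which overlap.

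Of the 4 tested type VI chains, 3 had a negative difference in tumors, where 56.6% of all genes tested had a positive one. Col6a1 held 35.1 and 23.8 CPM in control tumors 706 and 720 and 19.2 and 10.7 CPM in cKO tumors 725 and 746, which differ by -0.96 on the log2 scale (SE 0.41; adjusted p = 0.833, limma). Col6a2 held 20.3 and 19.43 CPM in the controls and 19.38 and 8.47 CPM in the cKO tumors, so that control 720 and cKO 725 were nearly equal. Col6a3 held 69.6 and 101 CPM in the controls and 55.9 and 85.3 CPM in the cKO tumors, which overlap. Col6a6, a weak type VI chain, held 0.703 and 2.89 CPM in the controls and 4.53 and 1.36 CPM in the cKO tumors, which also overlap. The type V chains did not share a direction. Col5a1 held 25.9 and 44.6 CPM in the controls and 49.7 and 40.8 CPM in the cKO tumors. Col5a2 held 39.9 and 49.5 CPM in the controls and 34.9 and 39.7 CPM in the cKO tumors. The weak chain Col5a3 held 5.21 and 0 CPM in the controls and 2.00 and 1.33 CPM in the cKO tumors, which overlap.

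Several other collagens were separated between the 2 tumor groups. The log2 difference was small for Col8a1 (-0.26, SE 0.25) and Col9a3 (0.36, SE 0.41). It was larger for Col8a2 (-0.91, SE 0.67) and Col9a2 (0.89, SE 0.51). Col8a1 and Col8a2, the short chains of type VIII collagen, which forms a network under vascular endothelium, were at 70.1 and 74.3 CPM and at 8.58 and 9.57 CPM in control tumors, and at 67.8 and 53.1 CPM and at 7.27 and 2.46 CPM in cKO tumors. Col8a1 also had the highest tumor level per kb among the other collagens (8.47 CPM per kb). Col9a2 and Col9a3, chains of collagen IX, were at 5.91 and 13.8 CPM and at 15.98 and 14.3 CPM in control tumors, and at 16.4 and 19.2 CPM and at 22.1 and 17.4 CPM in cKO tumors. Col16a1, a FACIT chain among the largest positive differences (0.85, SE 0.48), held 27.5 and 8.17 CPM in the controls and 35.0 and 22.7 CPM in the cKO tumors, which overlap. All 6 tested FACIT chains had a positive difference, with a median of 0.50, beside 56.6% of all genes tested, and none passed the test.

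The multiplexins showed no common direction in tumors. Col15a1 held 9.07 and 19.9 CPM in the controls and 20.5 and 7.71 CPM in the cKO tumors. Col18a1 held 19.8 and 21.9 CPM in the controls and 17.8 and 44.7 CPM in the cKO tumors. In both genes the 2 cKO tumors lay on either side of the controls. Col11a1, which was steady in macrophages, held 138 and 215 CPM in the control tumors and 174 and 293 CPM in the cKO tumors, a difference of 0.38 (SE 0.25).

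Counted over the tumor table, limma gave 0% of 14630 genes tested and 0 of 33 collagens with an adjusted p under 0.05, also without the intensity trend. At an unadjusted p under 0.05 there were 5.85% of all genes (856) and 5 of 33 collagens: Col3a1, Col1a2, Col6a1, Col4a1 and Col4a2. Both cKO tumors were above both controls for 5 of 33 collagens, beside 21.2% of all genes, and below both for 8 of 33, beside 14.3% of all genes. The median log2 difference was 0.09 over all tested collagens and 0.09 over all genes. Positive differences were found for 18 of 33 collagens (54.5%), beside 56.6% of all genes. The collagen median was 0.27 without control 720, -0.12 without control 706, 0.023 without cKO 725 and 0.0033 without cKO 746. By class it was -0.23 for fibrillar (4 of 9 positive), 0.46 for basement membrane (4 of 6) and 0.13 for other collagens (10 of 18); the fibrillar median was -0.04 without cKO 725 and -0.34 without cKO 746. Scaling to protein-coding genes moved the median of all genes by -0.11, and Col3a1 was then at -1.09 and Col4a1 at 0.56.

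As shares of the collagen signal per kb, fibrillar collagens took 40.6% and 45.4% in control tumors 706 and 720 and 30.4% and 36.7% in cKO tumors 725 and 746. Col1a1, Col1a2 and Col3a1 together took 30.1% and 32.0% in the controls and 16.8% and 20.5% in the cKO tumors. Type IV took 24.3% and 20.8% in the controls and 30.1% and 28.4% in the cKO tumors, and within it Col4a1 and Col4a2 took 8.47% and 5.66% against 13.3% and 11.8%. The summed collagen level per kb overlapped between the groups, at 186 and 210 CPM per kb in the controls and 179 and 209 CPM per kb in the cKO tumors. The fibrillar and type IV shares of the 2 groups thus did not overlap while the totals did, with 2 tumors in each group and no test of the shares. Shares of the same total are tied, since a lower fibrillar share by itself raises the others. The 2 shifts are therefore not separate observations.

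Cell type markers in the same tumors are given beside these values. Of all genes tested in tumors, 56.6% had a positive difference. The 10 fibroblast markers summed to 115 and 111 CPM in control tumors and 94.3 CPM in each cKO tumor, and 7 of the 9 tested had a negative difference, with a median of -0.25. Among them Lum, a proteoglycan that binds collagen fibers, held 22.6 and 22.1 CPM in the controls and 10.5 and 8.14 CPM in the cKO tumors, while Dcn held 34.4 and 32.9 CPM against 30.5 and 30.9 CPM. The 8 endothelial markers summed to 50.1 and 67.2 CPM in the controls and 54.7 and 74.7 CPM in the cKO tumors. Of these, 5 had a positive difference, with a median of 0.13. The 7 pericyte markers summed to 167 and 172 CPM against 185 and 222 CPM. By gene, 3 of them had a positive and 4 a negative difference, with a median of -0.14, so the sum and the median differ in direction. The part of these cells in the collagen values was not tested.

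The genes that modify, process, crosslink and bind collagen did not pass the test in either table. Of 41 such genes fixed as a list, 33 were tested in macrophages (19 positive, 14 negative, median 0.02) and 36 in tumors (22 positive, 14 negative, median 0.13). Over all genes tested, 54.7% were positive in macrophages and 56.6% in tumors. P3h2, a prolyl 3-hydroxylase that acts on type IV collagen, held 5.65, 10.2 and 5.09 CPM in control macrophages 706, 720 and 775 and 2.06, 0 and 6.36 CPM in cKO 725, 746 and 867. Loxl2, an enzyme that crosslinks collagen, held 0.0695, 4.67 and 9.78 CPM in the controls and 2.999, 6.003 and 28.6 CPM in the cKO libraries, again highest in cKO 867. Itga10, a chain of a collagen-binding integrin, was at 0.208, 0 and 3.61 CPM in the controls and at 1.43, 4.60 and 4.09 CPM in the cKO libraries. In these 3 genes, which had the largest macrophage differences of the list, the groups overlapped. Bmp1, which cleaves the end peptide of fibrillar procollagen, was singled out after its values were seen. In macrophages it held 46.96, 27.02 and 28.2 CPM in the controls and 26.8, 6.80 and 23.3 CPM in the cKO libraries. It was the only tested gene of the list whose macrophage groups did not overlap, and 3.45% of all genes were below every control. In tumors Bmp1 went the other way, with 4.48 and 13.7 CPM in controls 706 and 720 and 15.5 and 16.2 CPM in cKO 725 and 746. Of all genes, 21.2% were above both control tumors.

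In tumors the largest differences of that list were in weak genes. Pcolce, which helps cleave the end peptide of fibrillar procollagen, held 3.89 and 2.21 CPM in control tumors and was listed at 0 in both cKO tumors. P4ha3, a prolyl 4-hydroxylase chain, held 2.25 and 2.18 CPM in the controls and was listed at 0 in both cKO tumors. Itga10 was listed at 0 in both control tumors and held 2.60 and 2.37 CPM in the cKO tumors. Of the 5 crosslinking enzymes tested in tumors, 4 had a negative difference, with a median of -0.78. Lox, the strongest of them, averaged 76.1 CPM in controls and 69.7 CPM in cKO tumors (-0.12, SE 0.24), and its groups overlapped. Loxl3 was at 0.21 (SE 0.67). The lower values were in Loxl2 (-0.78, SE 0.45) and in the weak genes Loxl1 (-1.57, SE 0.93) and Loxl4 (-1.03, SE 0.88).

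In the 4 mice that gave both libraries, which do not include control 775 and cKO 867, the sorted cells carried less of most collagens than the whole tumor, and type IV stood closer to the tumor level than the fibrillar class. Over these mice Col3a1 averaged 23.7 CPM in macrophages and 248.7 CPM in tumors, or 9.51% of the tumor level, and Col1a2 was at 5.62%, Col5a1 at 8.60% and Col1a1 at 11.8%. Each of these fibrillar genes was lower in the macrophage library of all 4 mice. Col6a1 was at 6.91% and Col6a3 at 13.6% of the tumor level, close to the type I and III chains. This does not extend to cKO 867, whose summed collagen level was 264 CPM per kb, above the 179 to 210 CPM per kb of the 4 tumors.

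Other chains were closer to their tumor level. Col4a6 was at 93.0% and Col4a5 at 58.2% of it, against 35.2% for Col4a1 and 26.8% for Col4a2. Col11a1 was at 48.7%, Col15a1 at 92.4%, Col9a3 at 109%, Col14a1 at 139% and Col27a1 at 174%. The median over members tested in both tables was 12.9% for 8 fibrillar, 35.2% for 5 basement membrane and 29.0% for 17 other collagens. By summed CPM, in which strong genes weigh most, macrophage markers were at 2042% and luminal epithelial markers at 392% of the tumor level. Pericyte markers were at 93.9%, fibroblast markers at 68.1%, endothelial markers at 32.9% and basal epithelial markers at 14.5%. Single markers could differ from their sum. In these mice the pericyte marker Rgs5 held 2.08 to 12.5 CPM in macrophages and 31.1 to 57.6 CPM in tumors. Of the fibroblast markers, Lum held 0 to 2.58 against 8.14 to 22.6 CPM, and Dcn 16.3 to 72.2 against 30.5 to 34.4 CPM.

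These percentages set levels from separately normalized tables side by side and were not tested. The share of reads from protein-coding genes was 67.6% to 80.1% after sorting and 49.7% to 56.5% in whole tumors, and scaled to protein-coding reads the class medians were 8.79%, 24.4% and 19.96%. On that scale Col4a6 was at 64.2%, Col4a5 at 39.7%, Col11a1 at 33.4% and Col14a1 at 95.5%. Per the labels, the sorted cells had passed through collagenase digestion and the whole tumors were snap frozen.

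**Figure D5:**
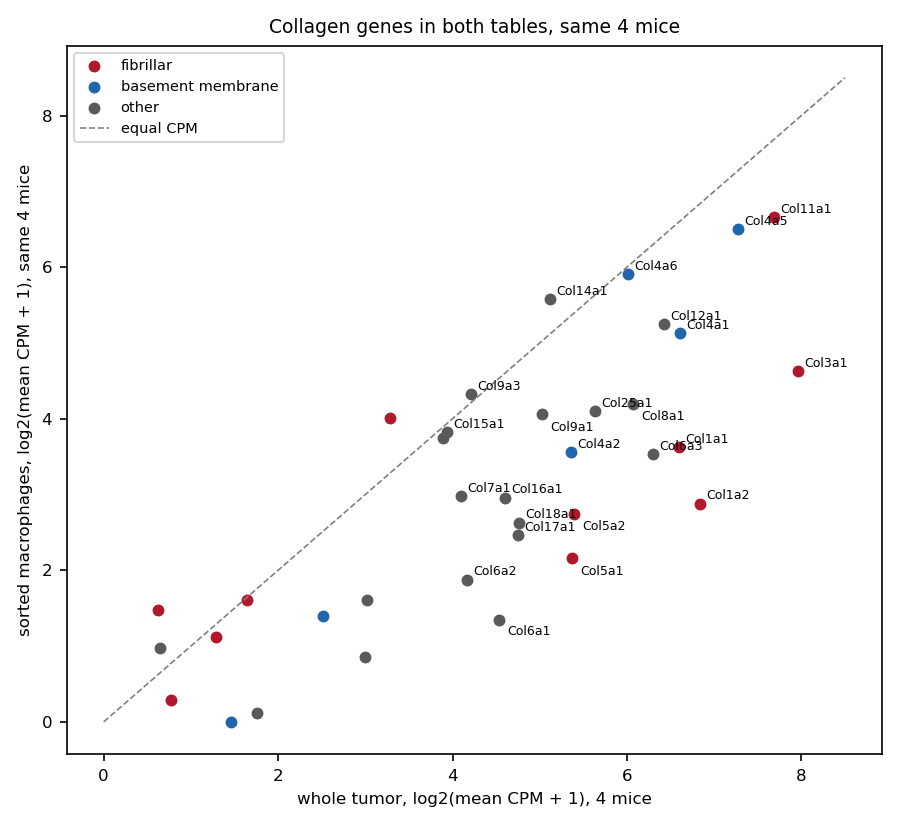
Mean level of each collagen listed in both tables, over the same 4 mice, in whole tumors (horizontal axis) and sorted macrophages (vertical axis), both as log2(mean CPM + 1), with a dashed line of equal CPM. Col4a6, Col14a1, Col9a3 and Col15a1 lie near the line, while Col3a1, Col1a1 and Col1a2 lie far below it at 9.51%, 11.8% and 5.62% of the tumor level.

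The remaining members were weak. In macrophages 8 of the 41 listed collagens had a mean under 1 CPM and were not tested, and in tumors 3 of 36 were not. At least 1 library was listed at 0 for 16 members in macrophages and 6 in tumors. Col2a1, the main cartilage chain, reached 4.40 CPM in cKO macrophages 746 and 3.37 CPM in control tumor 706 and was below 3 CPM in every other library. Col10a1, a chain of growth plate cartilage, stayed at or below 3.39 CPM in both tables. Positions of the members that the results turn on are, in GRCm38 by gene identifier, chr1:45311538-45349706 for Col3a1 (plus strand), chr11:94936224-94953042 for Col1a1 (plus), chr6:4504814-4541544 for Col1a2 (plus), chr8:11198423-11312826 for Col4a1 (minus) and chr8:11312805-11449287 for Col4a2 (plus). The exons of Col4a1 and Col4a2 overlap by 0.295% of the length of Col4a1, and the strand setting of the counting is not given in the sources used here.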

How the data were processed

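The deposited values are on a log2 scale: per the file headers the authors named them normalized counts, and when log2(CPM + 1) is undone each library sums to 1000000, which gives that scale. The submitters' processing notes list Partek, STAR 2.7.8a and the build GRCm38 (mm10); the counter and its strand setting are not given in the sources used here. Gene starts in the tables equal those of GENCODE vM21 for 2.19% (macrophages) and 2.29% (tumors) of matched genes, so positions were taken by identifier. Low values gave whole reads (within 0.1) for 79.8% to 88.3% of values, too few for a count test.

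The macrophage and tumor tables were modelled separately in limma 3.58.1 (R 4.3.3), with lmFit and a trended eBayes, as log2(CPM + 1), cKO minus control. Genes averaging 1 CPM or more over a table entered; p-values were two-sided and Benjamini-Hochberg adjusted over all of them, with a threshold of 0.05. The fit was run on simulated data, drawn independently for each gene and library, with changes added only to stronger genes. That setting holds no single outlying library and no change in a weak gene, so it does not cover those. Differences of log2(CPM + 1) understate changes of weak genes. P-values measure the spread between mice. Named are 12 fixed chains, the 3 largest differences per direction and members past the threshold or without overlap. The highest per kb in each class, the 3 largest differences of the collagen machinery list, and Cxcr4 are also named. Col11a1, Col27a1, Col4a3, Col2a1, Col10a1, Col5a3, Col6a6, Bmp1, and Col4a4 and Col4a6 in macrophages were named after their values were seen. So were the crosslinking enzymes in tumors and single markers. The members and lists were chosen with earlier results of these data known. Promoters came from RefSeq. Python 3.11.15 was used.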

Additional observations from a re-analysis of the deposited data

How the results depend on the processing

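No collagen passed the threshold under any alternative run. Among all macrophage genes, 0 passed with all 6 libraries, 0 to 3 with 1 library left out (1 without cKO 867, 1 without control 706, 3 without control 775) and 2 with the 4 mice of both tables. The tumor median over all collagens, 0.09, was 0.20 and 0.017 with pseudocounts of 0.1 and 5, 0.13 with a mean of at least 5 CPM, 0.036 with protein-coding scaling and -0.12 to 0.27 with 1 library left out; the cause was not tested. With 1 library left out, the tumor medians ranged from -0.34 to -0.04 for fibrillar, 0.23 to 0.69 for basement membrane and -0.16 to 0.28 for other collagens, and the macrophage fibrillar median from -0.09 to 1.79. Among the members named by the rule, signs turned with 1 library left out for 4 macrophage genes, Col1a1 (-0.060 to 2.30), Col1a2 (-0.95 to 1.88), Col3a1 (-0.18 to 2.37) and Col15a1 (-0.17 to 0.88), and for 4 tumor genes, Col6a3 (-0.58 to 0.023), Col15a1 (-0.74 to 0.56), Col18a1 (-0.21 to 1.07) and Col4a5 (-0.15 to 0.023). With the 4 mice only, Col15a1 was at -0.033 and Col14a1 at -0.0061 in macrophages. Col11a1 and Col4a6, near 0 in macrophages, also turned, with -0.26 to 0.27 and -0.18 to 0.19 over all alternatives, and Col27a1 was at -0.02 with the 4 mice. Of the members named by the rule, 14 of 19 in macrophages and 16 of 20 in tumors kept their sign. No paired analysis was possible because no mouse is in both groups of a table, the labels do not name the size-matched pairs, and the 2 tables were normalized separately. Where 1 tumor library was left out, the lone sample of its group was assumed to vary like the other group. With 3 against 3 and 2 against 2 libraries, and weak genes near 3 reads, small differences were not detectable and large ones could also fail the test. Examples are Col5a1 in macrophages (2.65; adjusted p = 0.9998, limma) and Col3a1 in tumors (-0.98; adjusted p = 0.584, limma).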
